A study of Homo sapiens with 6 samples.

Results

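The genome was read as runs of neighbouring genes. Autosomal genes whose counts averaged 10 or more over the 6 RNA-seq libraries, 20181 of the 62754 genes counted, were put in order of chromosome and gene start and cut into consecutive windows of 50 genes that did not overlap. This gave 407 windows with 20125 genes, of which 390 held 50 genes and 17 held 20 to 48. The other 56 genes lay in chromosome tails too short to form a window. The median window spanned 5.86 Mb, with a range of 0.61 to 30.9 Mb. Levels were taken as log2 CPM, which is counts scaled to library size after TMM adjustment. For each window the median log2 CPM difference from the mean of control replicates 1 and 2 was taken. This was done for knockout replicates 1 to 3 and for control replicate 3. Just inside the count minimum were 47 autosomal genes with a mean of 10.0 counts, and just outside it were 60 with a mean of 9.83.

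The libraries came from HEK293 cells, 3 from control cells and 3 from cells edited at FAM60A. HEK293 is an adherent line of human embryonic kidney origin that the labels also call HEK293T, grown in DMEM. FAM60A, listed under its current symbol SINHCAF, encodes a subunit of the Sin3/HDAC corepressor complex, which removes acetyl groups from histones. The knockout cells received Cas9 with guide RNAs against 3 regions of FAM60A and were selected in puromycin, so that they were a pool of edited cells rather than 1 clone; what the control cells received is not given in the labels. Nothing in the labels says that the replicates were separate cultures, and p-values then measure the spread between these libraries only, which may be technical.

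Genes that lie side by side on a chromosome share its copy number and large domains of chromatin, and a change in either can move many unrelated genes by a like amount. Cultured human lines often differ from each other, and from their own earlier passages, in the number of copies of whole chromosomes or arms, and HEK293 is known as an aneuploid line. DNA copy number and chromatin were not measured in these libraries, and their part in the values below was not tested.

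Total counts lay between 88361827 and 93346824 per library. SINHCAF was lower in every knockout library (61.9 to 67.7 CPM) than in every control (105 to 132 CPM). All 8 HEK293 markers were detected in every group, with a summed level of 1910 and 1940 CPM in control replicates 1 and 2, 1070 CPM in control replicate 3 and 917 to 1050 CPM in the knockout libraries. VIM and KRT8 weighed most in this sum, at 691 and 709 CPM in control replicate 1. They, KRT18, CDH2 and LIN28B were lower in control replicate 3 and the knockout, and NEFM in the knockout only. NEFL went the other way, at 78.2, 80.3 and 143 CPM in the controls and 82.8 to 96.2 CPM in the knockout libraries. So did PAX2, at 1.48, 1.67 and 5.96 CPM against 1.90 to 2.07 CPM. Of 4 leukocyte markers 3 stayed below 1 CPM in every library, as did 2 of 4 fibroblast markers (summed level 19.7 to 28.5 CPM); 4 markers of a mesenchymal carcinoma line summed to 80.9 to 127 CPM. Mitochondrial genes took 3.97% to 5.57% of the counts in the controls and 8.70% to 10.1% in the knockout libraries. In bulk samples fewer cells of a type and less RNA per cell cannot be told apart. Control replicate 3 stood apart from control replicates 1 and 2, so the windows are set against those 2 libraries. Control replicate 3 is compared with them separately. The knockout and control replicate 3 comparisons share control replicates 1 and 2, so their values are given side by side and their likeness was not tested.

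Among the borders of the shifted segments described below, the largest step in median from one side to the other lay on chromosome 19, in window 12. In both comparisons the split with the least absolute deviation fell between ENSG00000268442 and LINC00662. The nearest protein-coding genes with a listed promoter on the sides of this step were ZNF254, a zinc finger gene, and UQCRFS1, which encodes the Rieske iron-sulfur subunit of respiratory complex III. Their promoters (RefSeq, GRCh38.p14, 250 bases before to 50 after the gene start, 5′ to 3′) are shown because they flank the step. CG dinucleotides, searched as the letters CG, are in capitals. They stood at chr19:24086937-24087236 on the forward strand and chr19:29213102-29213401 on the reverse strand.
ZNF254: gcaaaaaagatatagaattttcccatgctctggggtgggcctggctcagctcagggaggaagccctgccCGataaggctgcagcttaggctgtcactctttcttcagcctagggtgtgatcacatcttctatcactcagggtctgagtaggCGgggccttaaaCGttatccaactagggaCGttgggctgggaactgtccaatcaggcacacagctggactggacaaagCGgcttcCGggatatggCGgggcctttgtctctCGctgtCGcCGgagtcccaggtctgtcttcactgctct
UQCRFS1: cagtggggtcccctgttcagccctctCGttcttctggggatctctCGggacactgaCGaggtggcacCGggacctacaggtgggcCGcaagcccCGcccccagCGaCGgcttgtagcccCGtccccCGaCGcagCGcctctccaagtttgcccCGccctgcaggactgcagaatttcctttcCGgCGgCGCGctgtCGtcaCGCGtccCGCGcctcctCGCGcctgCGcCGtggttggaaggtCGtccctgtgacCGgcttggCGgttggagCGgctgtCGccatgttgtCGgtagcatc
The ZNF254 promoter held 10 CG at 55.7% G and C, and that of UQCRFS1 held 32 CG at 68.3%. Of 27305 promoters of the same length, 1 per gene, 95.8% held at least 1 CG, with a median of 14. ZNF254 measured 18.8, 16.5 and 8.84 CPM in control replicates 1, 2 and 3 and 11.4, 10.7 and 11.98 CPM in knockout replicates 1, 2 and 3. UQCRFS1 measured 136, 156 and 317 CPM in the controls and 343, 348 and 317 CPM in the knockout libraries. On one side of the step control replicate 3 and the knockout libraries lay below control replicates 1 and 2, and on the other side they lay above.

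The window medians of the knockout libraries and of control replicate 3 both spread more widely around control replicates 1 and 2 than those 2 libraries did around each other. The knockout difference ran from -0.999 to 1.04 over the 407 windows, with quartiles of -0.23 and 0.24. The difference of control replicate 3 ran from -0.90 to 1.35, with quartiles of -0.17 and 0.14. Between control replicates 1 and 2 no window differed by 0.3 or more, and the values ran from -0.17 to 0.15. Among the 3 knockout libraries the range within a window had a median of 0.089, and it reached 0.3 in 2 windows. A window was called shifted at an absolute median of at least 0.3. In the knockout libraries 157 windows (38.6%) were shifted, 75 higher and 82 lower, and in control replicate 3 there were 119 (29.2%), 56 higher and 63 lower. Just inside the limit stood chromosome 9 window 1 at 0.3014 and chromosome 17 window 1 at -0.3007 in the knockout, and just outside it chromosome 5 window 10 at 0.2981 and chromosome 1 window 41 at -0.2859. For control replicate 3 the values nearest the limit were 0.3014 and -0.3046 inside, and 0.2956 and -0.2975 outside.

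**Figure D1:**
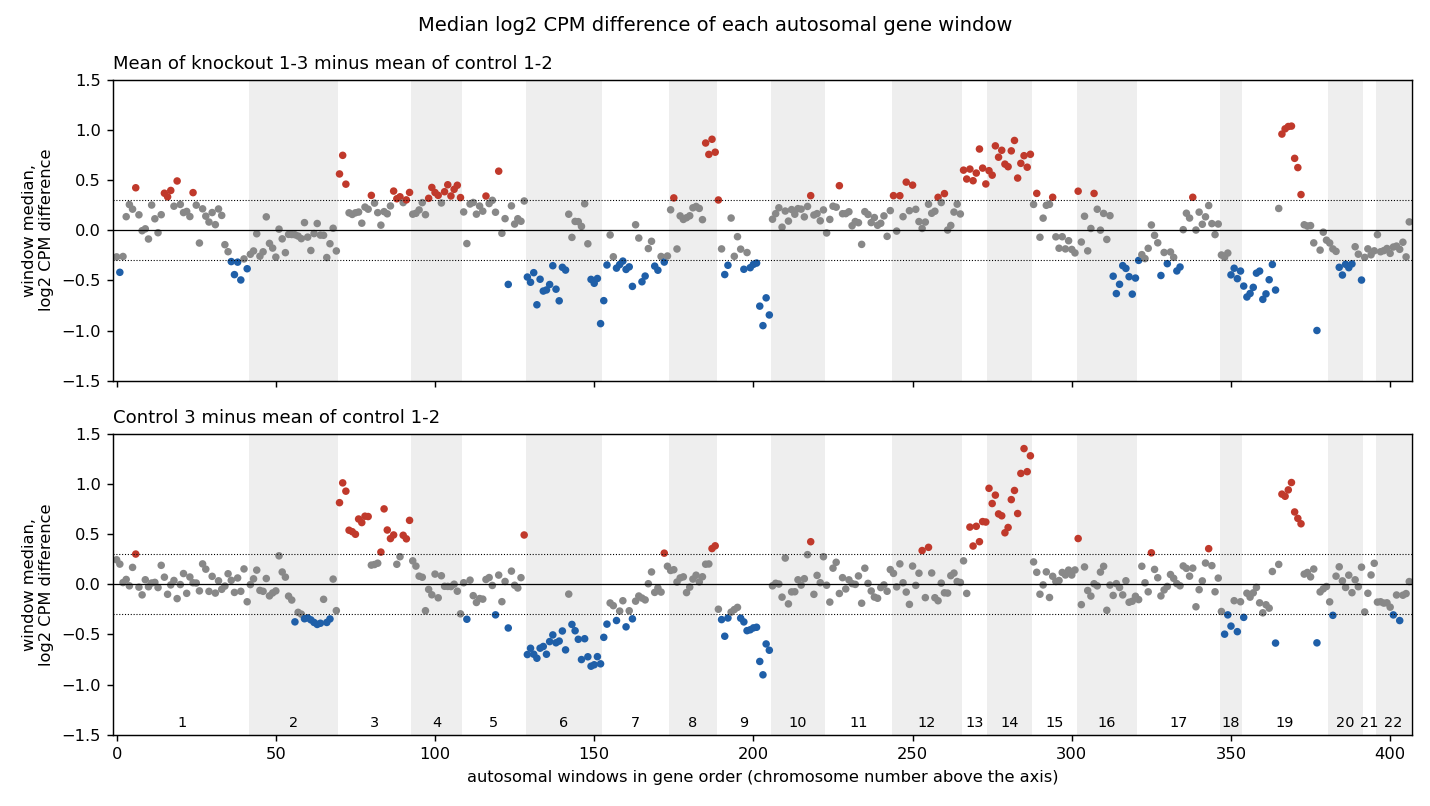
Each point is 1 of the 407 autosomal windows in gene order, with the median log2 CPM difference from the mean of control replicates 1 and 2 on the y axis for the mean of the 3 knockout libraries (top) and for control replicate 3 (bottom). Red and blue mark windows at or beyond 0.3 and -0.3 (dotted lines), which number 75 and 82 at the top and 56 and 63 at the bottom, and shading separates the chromosomes.

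Against all 3 controls, limma called 177 of the 407 windows (43.5%; 93 higher, 84 lower) at an adjusted p of at most 0.05. A two-sided exact permutation test of 3 against 3 libraries cannot go below p = 0.1, and 234 windows reached that value. The number of windows called rested on single libraries: without control replicate 3 it was 349, and without knockout replicate 1, 2 or 3 it was 102, 111 or 107. With library size in place of TMM scaling, the median over all autosomal genes moved from 0.035 to -0.082, and the shifted windows of the knockout became 44 higher and 131 lower, while the calls became 33 higher and 115 lower. With the mean of a window in place of its median, 125 were shifted higher and 70 lower. Directions of small shifts are therefore relative to the TMM scale.

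Runs of 2 or more neighbouring windows shifted the same way were taken as segments, and runs of the 2 comparisons that overlapped in the same direction were merged under the extent of the longer one. This gave 26 segments on 15 chromosomes, 10 higher and 16 lower, with 154 windows and 7560 genes. Windows of the shorter run that lay past the longer one counted as in no segment. On chromosome 3 this held for part of the knockout run of windows 18 to 20. On chromosome 18 it held for part of the control replicate 3 run of windows 2 to 4. The segments were chosen from these values, so their medians are a description. The 10 higher segments held 3131 genes with a median difference of 0.52 in the knockout and 0.54 in control replicate 3. The 16 lower segments held 4429 genes with medians of -0.39 and -0.31, and the 12621 autosomal genes in no segment had medians of 0.060 and 0.0032. Most genes of a segment lay on its side of 0, with 80.0% of those in higher segments above 0 in the knockout, against 54.0% outside segments and 52.2% of all autosomal genes. In lower segments 72.5% lay below 0, against 46.0% outside segments. Chromosomes 5, 10, 11, 12, 15, 21 and 22 held no segment.

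Genes were also split by level, as a description, since the same genes chose the segments. In the higher segments the knockout median was 0.52, 0.58 and 0.47 for the lowest, middle and highest of 3 equal level classes of the autosomal genes. In the lower segments it was -0.37, -0.35 and -0.42. Protein-coding genes alone gave 0.54 and -0.43. Promoters of protein-coding genes had a median G and C content of 65.0% over all autosomes, from 61.7% to 70.7% over the segments with listed promoters.

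**Figure D2:**
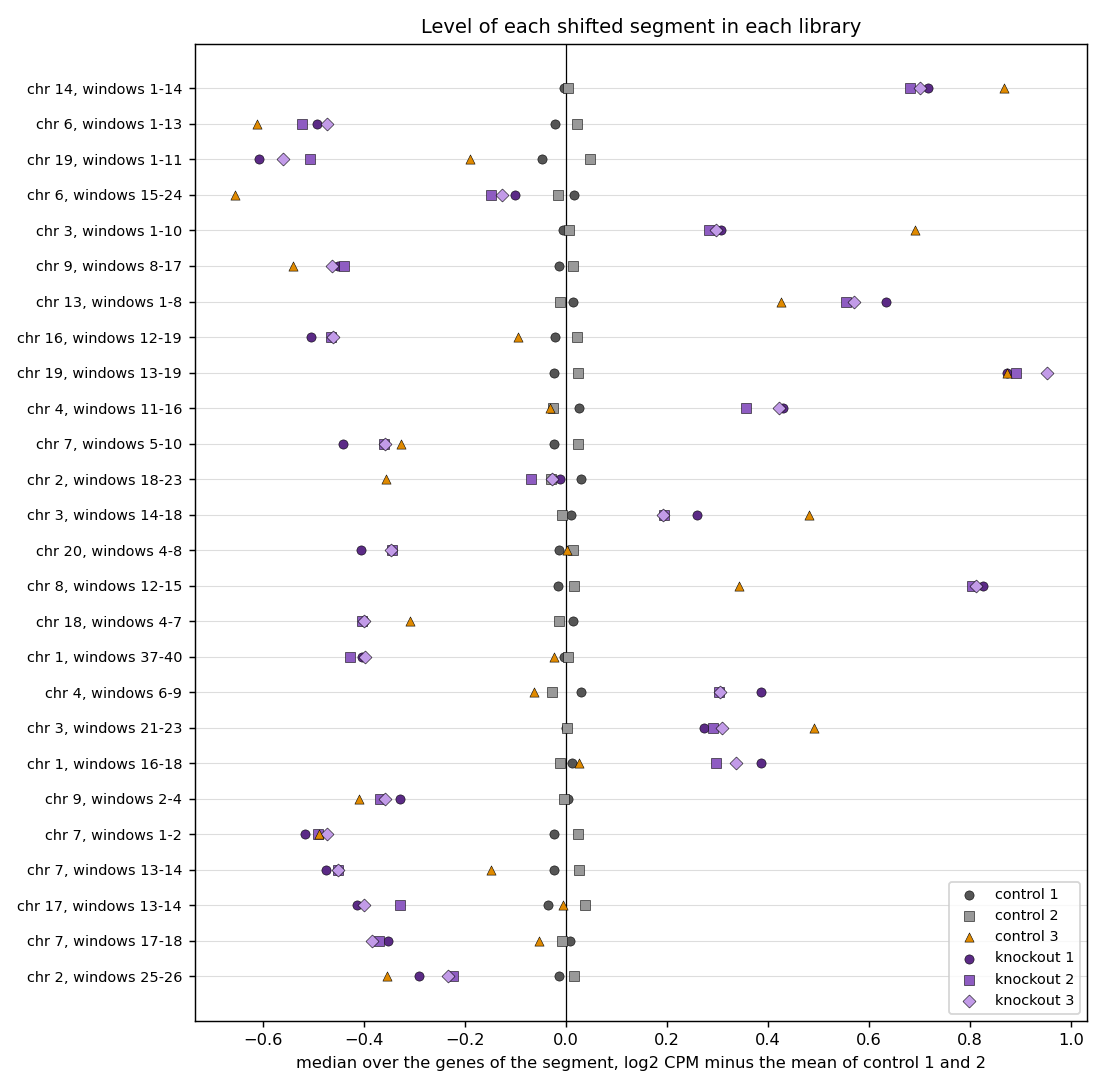
Each row is 1 of the 26 segments and each point 1 library, placed by the median over the genes of the segment of log2 CPM minus the mean of control replicates 1 and 2. Knockout libraries lie close together in every segment (widest spread 0.10), and control replicate 3 sits with them in some segments, beyond them in others, and elsewhere between them and control replicates 1 and 2 (chromosomes 8 and 13) or beside the latter.

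Over the 26 segments the widest spread of the 3 knockout libraries was 0.10, and control replicates 1 and 2 differed by at most 0.094. In 14 segments all knockout libraries lay outside the range of the 3 controls. Of all 407 windows, 234 reached the lowest exact permutation p, which takes the same full separation of the groups. Such separation was therefore not particular to the segments. By which comparison with control replicates 1 and 2 was shifted, the segments fell into 4 groups. In 4 segments (36 windows) every window was shifted in both comparisons. In 9 segments (36 windows) no window was shifted in control replicate 3, and in 2 segments (8 windows) none was shifted in the knockout. The other 11 segments (74 windows) had shifted windows in both comparisons but not throughout. Limma called all 36 windows of the 9 segments of the knockout alone against the 3 controls, and 3 of the 36 windows of the segments shifted throughout in both. These counts follow in part from how the groups were chosen.

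The segments in which every window was shifted in both comparisons included a whole chromosome. On chromosome 14 all 14 windows (674 genes, chr14:19411432-106445233, GRCh37) were higher. The segment stood at -0.0044 and 0.0044 in control replicates 1 and 2, at 0.87 in control replicate 3, and at 0.72, 0.68 and 0.70 in knockout replicates 1, 2 and 3. Control replicate 3 was the highest library, and the knockout libraries lay together a little below it. Window medians ran from 0.52 to 0.89 in the knockout and from 0.51 to 1.35 in control replicate 3, whose last 4 windows stood at 1.11, 1.35, 1.12 and 1.28. Of 674 genes 89.0% lay above 0 in the knockout and 89.6% in control replicate 3. Limma called 1 of the 14 windows, window 6, from DDHD1 to DHRS7 (adjusted p = 0.0354). Among genes called by edgeR over the whole genome 7.96% of 20992 were higher and 8.67% lower. Without control replicate 3, 14221 genes were called, and without knockout replicate 1, 2 or 3, 167, 503 or 189. On chromosome 14, 50 of 667 tested genes were higher (7.5%) and 13 lower (1.9%), near the background for rises.

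The most highly expressed coding genes of chromosome 14 differed in how far they stood from control replicates 1 and 2. HSP90AA1, the stress-inducible HSP90 chaperone, measured 2910, 2849 and 3747 CPM in the controls and 6390, 5501 and 5674 CPM in the knockout libraries. All knockout libraries lay above every control (edgeR log2 fold change 0.88, adjusted p = 0.0151). CKB, brain-type creatine kinase, measured 732, 818 and 2349 CPM in the controls and 1124, 1286 and 1070 CPM in the knockout libraries, so that control replicate 3 was highest (adjusted p = 0.818). SUPT16H, a subunit of the histone chaperone FACT, measured 296, 282 and 528 CPM in the controls and 534, 530 and 488 CPM in the knockout libraries. HNRNPC, an RNA-binding protein of the nucleus, measured 985, 970 and 1016 CPM against 1276, 1222 and 1183 CPM. The first and last genes of the chromosome, the pseudogenes ENSG00000257175 and ENSG00000225200, had knockout differences of -0.13 and 0.48.

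On chromosome 19 the raised segment spanned windows 13 to 19 (350 genes, chr19:30528330-46000313, GRCh37) and had the largest median of the 26 in the knockout. It stood at -0.023 and 0.023 in control replicates 1 and 2, at 0.87 in control replicate 3, and at 0.87, 0.89 and 0.95 in the knockout libraries. Control replicate 3 and the knockout libraries lay together, far from control replicates 1 and 2. Windows 13 to 16 had knockout medians of 0.96 to 1.04, and from there the medians fell to 0.72, 0.62 and 0.36 in windows 17, 18 and 19. Limma called none of the 7 windows (0 of 7, adjusted p 0.0781 to 0.149), with an exact permutation p not below 0.1. Of 349 tested genes 39 were called higher (11.2%) and 7 lower (2.0%), beside 7.96% and 8.67% over the genome. RPS16, a protein of the small ribosomal subunit, measured 569, 717 and 2042 CPM in the controls and 1746, 2018 and 1721 CPM in the knockout libraries. GPI, glucose-6-phosphate isomerase of glycolysis, measured 259, 269 and 627 CPM against 686, 847 and 737 CPM. UBA2, part of the enzyme that activates SUMO, measured 426, 422 and 758 CPM against 880, 827 and 790 CPM. The step at its start was 1.57 on the log2 scale in the knockout and 1.81 in control replicate 3 over windows 12 and 13. At its end both comparisons split between ZNF233 and ZNF112, with steps of -1.35 and -0.996. Both border windows held a cluster of zinc finger (ZNF) genes. In window 12 the 18 ZNF genes had a knockout median of -0.63 and the other 32 genes one of 0.81. In window 19 the 17 ZNF genes had one of 1.09 and the other 33 genes one of 0.26. How far the steps followed from these clusters was not tested. The genes of this segment were detailed after their values were seen.

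Chromosome 6 was lower from its first window to window 13 (650 genes, chr6:285443-63922929, GRCh37). The segment stood at -0.022 and 0.022 in control replicates 1 and 2, at -0.61 in control replicate 3 and at -0.49, -0.52 and -0.47 in the knockout libraries. All 13 windows were shifted in both comparisons, from -0.74 to -0.35 in the knockout and from -0.74 to -0.47 in control replicate 3. Limma called 1 window, window 11 from ZFAND3 to CUL7 (adjusted p = 0.0282). Of 638 tested genes 57 were called lower (8.9%) and 25 higher (3.9%), the former close to the background of 8.67%. TUBB, a beta-tubulin, measured 2240, 2442 and 1818 CPM in the controls and 1312, 1469 and 1244 CPM in the knockout libraries, with no overlap (edgeR log2 fold change -0.70, adjusted p = 0.0255). HSP90AB1, the constitutive HSP90 chaperone, measured 2435, 2501 and 1683 CPM against 2089, 2490 and 2213 CPM, and the groups overlapped. RPL10A, of the large ribosomal subunit, measured 790, 872 and 978 CPM against 1093, 1044 and 944 CPM, against the direction of its segment. The end of the segment lay after ENSG00000272541 in the knockout and 1 gene earlier, after PRIM2, in control replicate 3, with a step of 0.61 in both. The first gene, ENSG00000287265, and the last, FKBP1C, had knockout differences of -0.85 and 0.014, and LGSN, just past the end, 0.35.

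Past window 14 the libraries parted. Windows 15 to 24 (470 genes, chr6:79943416-170893780) were lower throughout in control replicate 3 and in part in the knockout. The segment stood at -0.66 in control replicate 3, at -0.10, -0.15 and -0.13 in the knockout libraries and at 0.015 and -0.015 in control replicates 1 and 2. Windows 16 to 19 of the knockout lay above 0, up to 0.26 in window 19, while control replicate 3 lay between -0.75 and -0.46 there. Windows 21 to 24 were lower in both, from -0.93 to -0.48 in the knockout and from -0.82 to -0.72 in control replicate 3. Limma called window 19, which was higher in the knockout than in the controls (adjusted p = 0.0185). In it 16 genes were called higher by edgeR, beside 7.96% of genes over the genome. HDAC2, a histone deacetylase of the Sin3 complex and others, measured 735, 738 and 327 CPM in the controls and 630, 591 and 575 CPM in the knockout libraries. CD164, a cell surface sialomucin, measured 607, 579 and 236 CPM against 450, 422 and 437 CPM. For both genes control replicate 3 was the lowest library (edgeR adjusted p = 0.984 and 0.819). TCP1, a chaperonin subunit, and RPS12, of the small ribosomal subunit, had knockout differences of -0.17 and -0.40 and were not called. The first gene, HMGN3-AS1, stood at -1.48 and the last, PDCD2, at -0.63, while HMGN3, just before the segment, stood at 0.29. The split of windows 14 and 15 fell before CGAS, with a step of -0.48 in the knockout and -0.64 in control replicate 3.

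**Figure D3:**
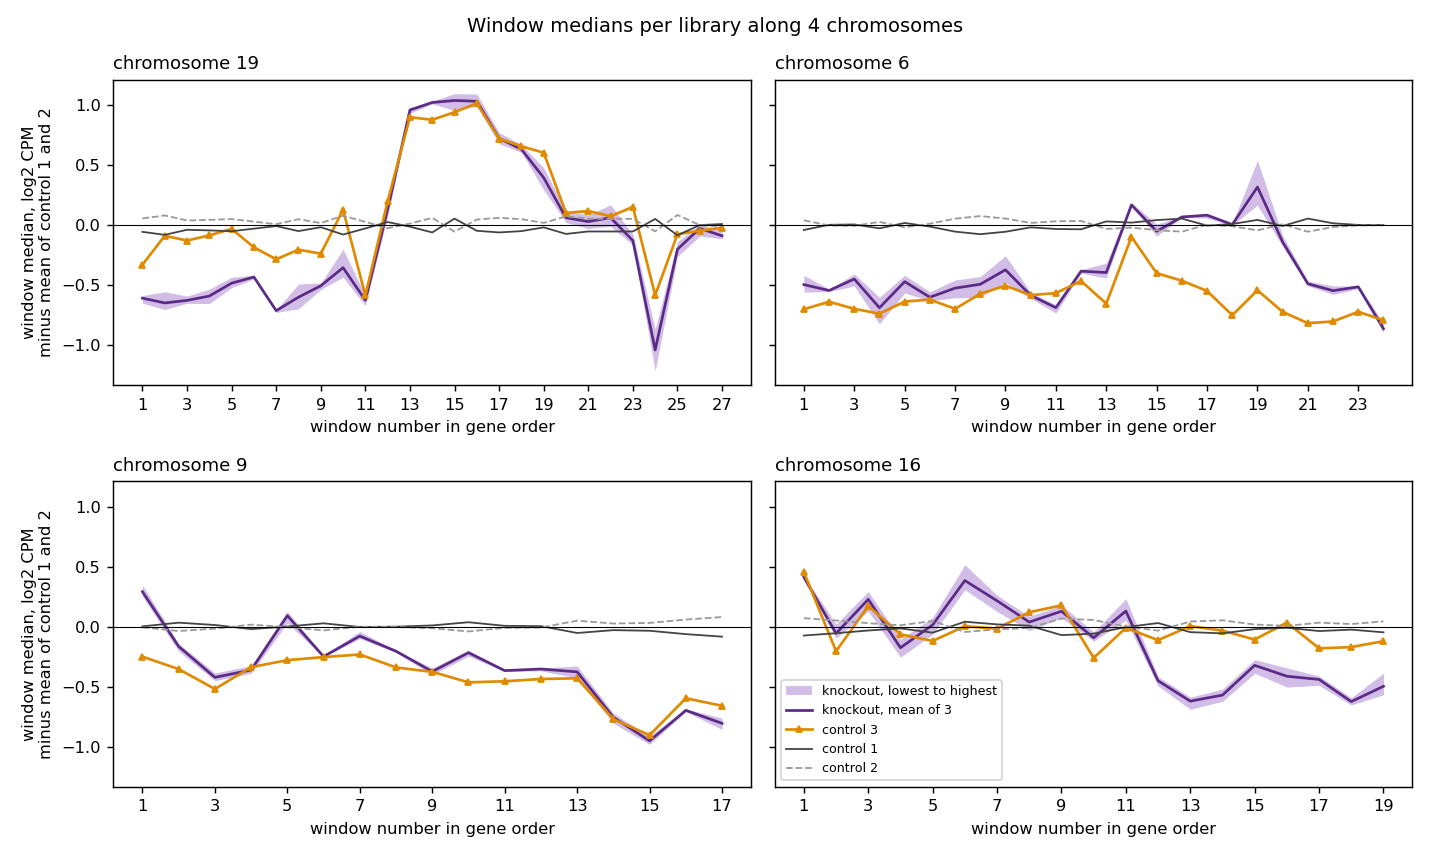
Window medians per library along chromosomes 19, 6, 9 and 16, as log2 CPM minus the mean of control replicates 1 and 2 against the window number. The band spans the 3 knockout libraries; on chromosome 19 the knockout and control replicate 3 both lie above 0 at windows 13 to 19, on chromosome 6 they part at windows 15 to 20, and on chromosome 16 the knockout lies below the controls at windows 12 to 19.

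Chromosome 9 was lower in both comparisons in windows 8 to 17 (479 genes, chr9:90680240-141143444), of which all 10 were shifted in control replicate 3 and 8 in the knockout. The segment stood at -0.54 in control replicate 3 and -0.45, -0.44 and -0.46 in the knockout libraries. Control replicates 1 and 2 stood at -0.014 and 0.014. Window 15, from MED27 to LINC02846, was the lowest, at -0.95 in the knockout and -0.90 in control replicate 3. Window 17 was called by limma (adjusted p = 0.0436). Of 472 tested genes 47 were called lower (10.0%) and 6 higher, near the 8.67% lower over the genome. TUBB4B, a beta-tubulin, measured 978, 1032 and 464 CPM in the controls and 464, 506 and 441 CPM in the knockout libraries. HSPA5, the chaperone BiP of the endoplasmic reticulum, measured 785, 772 and 407 CPM against 728, 715 and 765 CPM, so that control replicate 3 alone was low. RPL35 and RPL7A, of the large ribosomal subunit, had knockout differences of -0.075 and -0.33, and no one of these 4 genes was called. The first and last genes, LINC03026 and ENSG00000290585, stood against the segment at 1.04 and 0.97, and RPS10P3, just before it, stood at -0.35.

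In the segments of chromosome 3 control replicate 3 stood further from control replicates 1 and 2 than the knockout did. Windows 1 to 10 (500 genes, chr3:2140497-68686175) stood at 0.69 in control replicate 3, at 0.31, 0.28 and 0.30 in the knockout libraries and at -0.0065 and 0.0065 in control replicates 1 and 2. In control replicate 3 all 10 windows were shifted, from 0.50 to 1.01, and in the knockout windows 1 to 3 were, from 0.46 to 0.75. Limma called 0 of the 10 windows, in which the lowest adjusted p was 0.261 and the exact permutation p was not below 0.1. RPL15, of the large ribosomal subunit, measured 595, 714 and 1693 CPM in the controls and 772, 796 and 726 CPM in the knockout libraries. RPL32, also of the large subunit, measured 427, 584 and 948 CPM against 1154, 1132 and 1011 CPM. RPSA, the laminin receptor protein of the small ribosomal subunit, measured 522, 614 and 1083 CPM against 718, 681 and 622 CPM. None of the 3 was called. CTNNB1, beta-catenin of cell adhesion and WNT signalling, measured 514, 500 and 538 CPM against 602, 549 and 553 CPM. The first gene of the segment, CNTN4, an adhesion molecule of neurons, was lower instead, with 7.32 and 6.66 CPM in control replicates 1 and 2, none in control replicate 3 and at most 0.0357 CPM in the knockout libraries. The last gene, the pseudogene PSMC1P1, had a knockout difference of 0.32, and TAFA4, just past the end, one of 0.35. Further along, windows 14 to 18 and 21 to 23 were also higher in control replicate 3, at 0.48 and 0.49, against 0.19 and 0.31 in the knockout.

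The longest segment lowered mainly in the knockout was windows 1 to 11 of chromosome 19 (550 genes, chr19:60951-21133503). It stood at -0.61, -0.51 and -0.56 in the knockout libraries, at -0.047 and 0.047 in control replicates 1 and 2, and at -0.19 in control replicate 3. All knockout libraries lay below every control. Limma called all 11 windows (adjusted p 0.00159 to 0.0282). In control replicate 3 only windows 1 and 11 were shifted, at -0.33 and -0.59, and window 10 stood at 0.13. Of 537 tested genes 197 were called lower (36.7%) and 6 higher (1.1%), against 8.67% and 7.96% over the genome. CALR, the calcium-binding chaperone calreticulin, measured 1051, 1101 and 705 CPM in the controls and 698, 675 and 681 CPM in the knockout libraries (edgeR adjusted p = 0.111). EEF2, the translation elongation factor 2, measured 3967, 4044 and 5031 CPM against 3677, 3922 and 3552 CPM. BSG, the surface glycoprotein basigin, measured 1000, 1035 and 630 CPM against 902, 898 and 916 CPM. RPS15, of the small ribosomal subunit, measured 679, 736 and 742 CPM against 663, 769 and 660 CPM. None of these 4 was called, and their knockout differences from control replicates 1 and 2 were -0.65, -0.11, -0.17 and -0.024. The first gene, the pseudogene WASH5P, stood at -1.15 and the last, ZNF85, at -1.55. ZNF85 measured 7.21, 7.09 and 3.08 CPM against 2.38, 2.34 and 2.59 CPM (adjusted p = 0.053 by edgeR). ENSG00000289297, just past the end, measured 0.236, 0.311 and 0.414 CPM in the controls and had no count in the knockout libraries (edgeR adjusted p = 0.00993).

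In 9 segments, 6 lower and 3 higher, windows were shifted in the knockout and none in control replicate 3. On chromosome 16, windows 12 to 19 (398 genes, chr16:48377666-90289259) stood at -0.51, -0.47 and -0.46 in the knockout libraries, at -0.022, 0.022 and -0.094 in control replicates 1, 2 and 3. Here 124 of 388 tested genes were called lower (32.0%) and 0 of 388 higher, where 7.96% of all genes were higher. GOT2, the mitochondrial aspartate aminotransferase, measured 287, 316 and 314 CPM in the controls and 220, 258 and 220 CPM in the knockout libraries (edgeR log2 fold change -0.40, adjusted p = 0.0468). The start of the segment lay between NDUFA5P11 and ABCC11, with a step of -0.63 in the knockout. On chromosome 20, windows 4 to 8 (250 genes) stood at -0.41, -0.34 and -0.35 in the knockout libraries and at -0.015, 0.015 and 0.0019 in the controls, with 72 of 246 tested genes lower (29.3%, beside 8.67% over the genome). On chromosome 1, windows 37 to 40 (200 genes) stood at -0.40, -0.43 and -0.40 against -0.0042, 0.0042 and -0.024, with 60 of 198 lower (30.3%, beside the same 8.67%). PARP1, a sensor of DNA breaks, measured 1025, 956 and 1155 CPM there in the controls and 677, 722 and 695 CPM in the knockout libraries (adjusted p = 0.0179). ARF1, a small GTPase of Golgi transport, measured 578, 609 and 653 CPM against 386, 450 and 358 CPM (adjusted p = 0.0201). Windows 13 and 14 and windows 17 and 18 of chromosome 7 and windows 13 and 14 of chromosome 17 had knockout medians of -0.49, -0.37 and -0.38, and 28.3% to 31.0% of their tested genes were called lower.

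The other 3 of these 9 segments were higher in the knockout. On chromosome 4, windows 11 to 16 (281 genes) stood at 0.43, 0.36 and 0.42 in the knockout libraries and at 0.026, -0.026 and -0.033 in the controls, and windows 6 to 9 (200 genes) had medians of 0.36 and -0.064 in the knockout and control replicate 3. Limma called all 10 of these windows. Of the tested genes 62 of 279 (22.2%) and 39 of 198 (19.7%) were called higher, beside 7.96% over the genome. RPS3A, of the small ribosomal subunit, measured 348, 339 and 341 CPM in the controls and 517, 436 and 481 CPM in the knockout libraries (edgeR log2 fold change 0.47, adjusted p = 0.0254). CPE, carboxypeptidase E of hormone processing, lay in the same segment at 367, 385 and 190 CPM against 301, 279 and 281 CPM. On chromosome 1, windows 16 to 18 (150 genes) had medians of 0.37 and 0.026.

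On chromosome 8, windows 12 to 15 (190 genes) stood higher in the knockout libraries than in every control. They stood at 0.82, 0.80 and 0.81 in the knockout libraries, at 0.34 in control replicate 3 and at -0.015 and 0.015 in control replicates 1 and 2. The 3 knockout libraries lay above control replicate 3, which lay above the other controls. Limma called all 4 windows (adjusted p 0.00159 to 0.00667), and edgeR called 70 of 188 genes higher (37.2%) and 0 of 188 lower, beside a background of 7.96% and 8.67%. SQLE, squalene monooxygenase of cholesterol synthesis, measured 155, 165 and 200 CPM in the controls and 437, 407 and 421 CPM in the knockout libraries (edgeR log2 fold change 1.27, adjusted p = 0.00404). RAD21, a cohesin subunit, measured 226, 210 and 236 CPM against 345, 350 and 326 CPM (adjusted p = 0.0119). CYC1, cytochrome c1 of complex III, measured 149, 185 and 226 CPM against 346, 357 and 345 CPM (adjusted p = 0.0171). RPL8, of the large ribosomal subunit, measured 1197, 1416 and 2344 CPM against 2579, 2598 and 2584 CPM and was not called (adjusted p = 0.127). EIF3E, the gene next to the segment before its first window, was also higher, at 353, 352 and 404 CPM against 890, 739 and 833 CPM (adjusted p = 0.00482). The split of windows 11 and 12 lay between ENSG00000288945 and ENSG00000271830 in the knockout, with a step of 0.78. In control replicate 3 it lay elsewhere, between ZHX2 and DERL1, with a step of -0.43. These genes were detailed after their values were seen.

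Chromosome 13 was higher in all 8 windows of the knockout (398 genes, chr13:19254634-115103101), at 0.63, 0.55 and 0.57, and in 6 windows of control replicate 3, which stood at 0.42. Windows 1 and 2 were shifted in the knockout (0.60 and 0.51) and not in control replicate 3 (0.23 and -0.091), and limma called both with window 6. Of 395 tested genes 77 were called higher (19.5%, beside 7.96% over the genome) and 10 lower. HSPH1, a large heat shock protein, measured 227, 206 and 121 CPM in the controls and 373, 368 and 366 CPM in the knockout libraries (edgeR log2 fold change 0.99, adjusted p = 0.0358). TPT1, a highly expressed gene of this segment, measured 493, 533 and 1260 CPM against 1017, 969 and 939 CPM. Chromosome 7 windows 1 and 2 (-0.53 in the knockout, -0.49 in control replicate 3) and 5 to 10 (-0.38 and -0.33), chromosome 18 windows 4 to 7 (-0.42 and -0.31) and chromosome 9 windows 2 to 4 (-0.36 and -0.41) were lower in both comparisons. Chromosome 2 windows 18 to 23 and 25 to 26 were shifted in control replicate 3 (-0.36 and -0.35) and not in the knockout (-0.034 and -0.24).

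**Figure D4:**
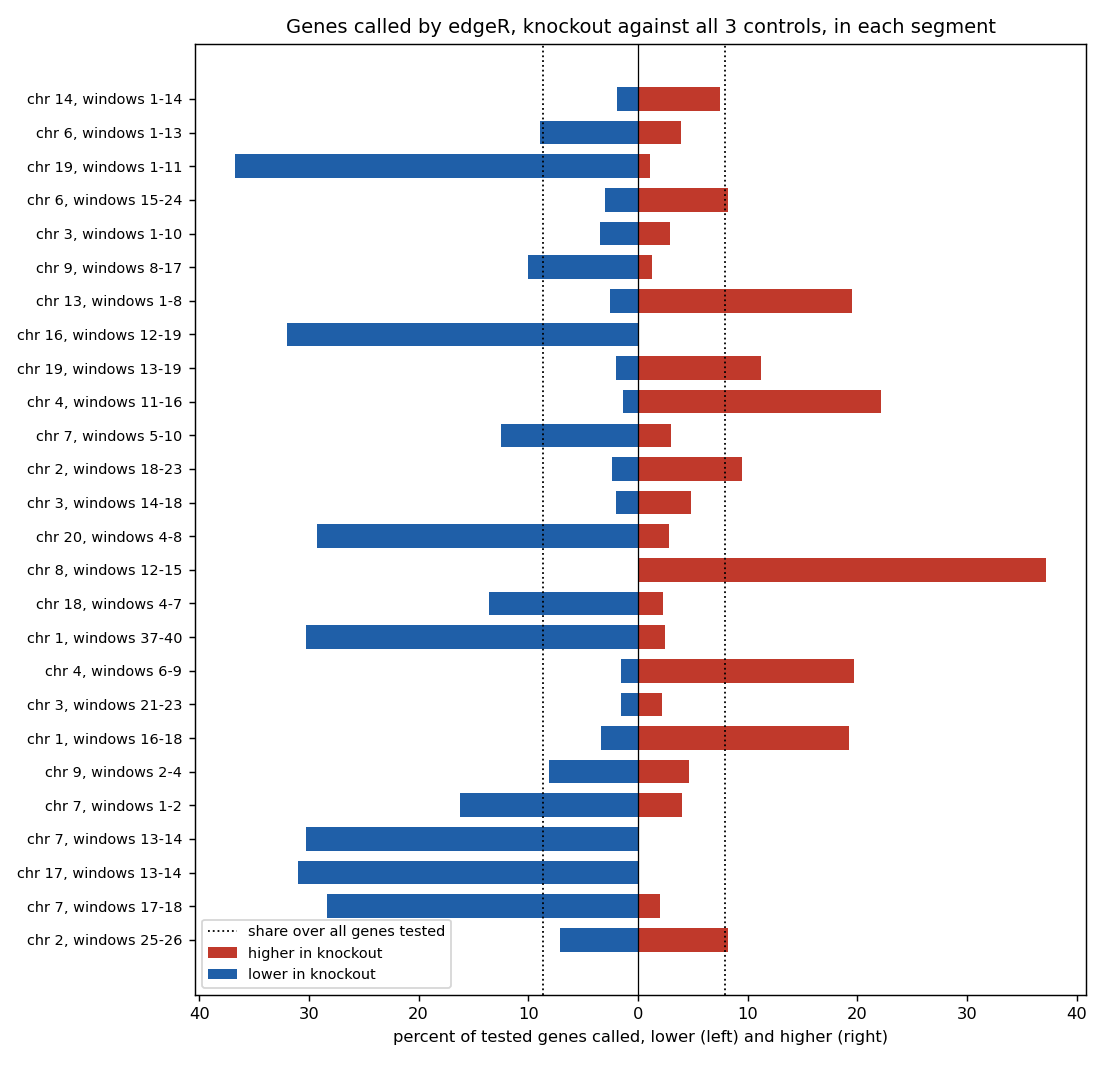
Bars give the percent of tested genes in each segment that edgeR called higher (red, right) or lower (blue, left) in the 3 knockout libraries against all 3 controls, and the dotted lines give the share over all 20992 genes tested, 7.96% and 8.67%. The share lower reaches 36.7% in windows 1 to 11 of chromosome 19 and the share higher 37.2% in windows 12 to 15 of chromosome 8, while chromosome 14 stands at 7.5% higher.

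Over all segments, 394 of 3097 tested genes in higher segments were called higher (12.7%) and 66 lower (2.1%). In lower segments 763 of 4357 were called lower (17.5%) and 149 higher (3.4%). In no segment lay 12455 tested genes, with 1008 higher (8.1%) and 882 lower (7.1%). Windows were called at 42.2% in segments (65 of 154) and 44.3% elsewhere (112 of 253), near the 43.5% over all windows. The rule used the libraries of this test, so these shares describe the segments and test nothing about them.

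Subunits of shared machines are encoded on many chromosomes, and their values were split by segment. These genes were among those that chose the segments. Their side of 0 within segments follows in part from that choice and tests nothing. Of 208 tested genes for cytosolic ribosomal proteins, proteasome subunits, mitochondrial ribosomal proteins and cytosolic aminoacyl-tRNA synthetases, 35 lay in higher segments, of which 33 lay above 0 in the knockout (median 0.68), and 8 were called higher. Of all genes in higher segments 80.0% lay above 0 and 12.7% were called higher. In lower segments lay 50, of which 41 lay below 0 (median -0.31), and 7 were called lower and 1 higher, beside 72.5% below 0 and 17.5% called lower over all genes there. The 123 outside segments had a median of 0.19, and 18 were called higher and 1 lower. Of all genes there 8.1% were called higher and 7.1% lower. For protein-coding genes of no list the medians were 0.54, -0.43 and 0.027. The medians of the 208 genes in control replicate 3 were 0.62, -0.18 and 0.021 in higher segments, lower segments and elsewhere. Proteasome subunits form the protease that degrades ubiquitin-tagged proteins. They had medians of 0.75 in higher segments (9 genes), -0.52 in lower segments (10 genes) and -0.085 elsewhere (17 genes). Control replicate 3 had 0.30, -0.78 and -0.35 for them. PSMA6, PSMC6 and PSMA3 on chromosome 14 were called higher (knockout differences 0.88, 0.68 and 0.78). PSMB8, an interferon-inducible subunit in the lowered part of chromosome 6, was called higher against its segment, at 0.492, 0.580 and 0.703 CPM in the controls and 1.0, 1.32 and 1.01 CPM in the knockout libraries, a low level. Mitochondrial ribosomal proteins had medians of 0.60 (11 genes), -0.50 (18 genes) and 0.16 (48 genes). Their medians in control replicate 3 were 0.48, -0.41 and -0.0037. MRPL13 on chromosome 8 was called higher (0.83) and MRPL4 on chromosome 19 was called lower (-0.62). Cytosolic ribosomal proteins had medians of 0.73 (13 genes), -0.12 (16 genes) and 0.34 (49 genes), and of 0.93, -0.036 and 0.275 in control replicate 3. The 17 synthetase genes, which load amino acids onto tRNAs, split into 2, 6 and 9 with medians of 0.51, -0.38 and 0.15. Their medians in control replicate 3 were all above 0, at 1.22, 0.30 and 0.39.

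In some windows a cluster of related genes and the other genes had unlike medians. The window of largest fall lay outside any segment, chromosome 19 window 24 from ZNF350 to OSCAR (chr19:52467593-54606000), at 0.052 and -0.052 in control replicates 1 and 2, -0.58 in control replicate 3 and -1.03, -1.22 and -0.87 in the knockout libraries (limma difference -0.81, SE 0.21, adjusted p = 0.0243). Of its 50 genes 32 were ZNF genes, most of which encode DNA-binding repressor proteins. The ZNF genes had a knockout median of -1.36, with 27 of 32 below 0 and 13 called lower (8.67% of genes were lower over the genome), and the other 18 genes had one of -0.34. In control replicate 3 the medians were -0.64 for the ZNF genes and -0.52 for the others. ZNF677 measured 7.95, 6.80 and 6.88 CPM in the controls and 0.321, 0.411 and 0.386 CPM in the knockout libraries, so that control replicate 3 stayed with the other controls (edgeR adjusted p = 0.000654). ZNF83 measured 14.7, 13.9 and 2.68 CPM against 0.321, 0.274 and 0.602 CPM, with control replicate 3 in between (adjusted p = 0.0135). ZNF614, in the same window, measured 14.1, 12.3 and 12.1 CPM against 17.3, 15.1 and 17.5 CPM. Values of these 3 had been seen when they were picked, and related zinc finger genes can share reads.

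Within the lowered segment of chromosome 19, window 7 held 21 ZNF genes with a median of -2.44, all 21 below 0. Of these 12 were called lower, beside 8.67% over the genome. The other 29 genes of the window had a median of -0.26. Control replicate 3 stood at -0.665 for the ZNF genes and at 0.055 for the others. Window 11 held 11 ZNF genes with a median of -2.10, and its other 39 genes had one of -0.54. Control replicate 3 stood at -1.75 and -0.50 there. Window 6 of the same segment went the other way in the knockout. It had -0.30 for 11 ZNF genes, 3 of them above 0 and 1 called lower, and -0.56 for the other 39. Its ZNF genes were the lower ones in control replicate 3, at -0.46 against -0.099. In the raised segment the sign was opposite. Window 13 held 5 ZNF genes with a knockout median of 0.67, below the 0.97 of the other 45. Window 15 held 25 ZNF genes, all above 0, with a median of 1.08, beside 0.85 for the other 25. The ZNF medians of control replicate 3 were 0.65 and 0.93 in these windows, against 0.95 and 1.18 for the others. Histone genes made up 21 genes of chromosome 6 window 4, with a knockout median of -1.13 against -0.23 for the other 29. They made up 10 genes of window 5, at -0.90 against -0.36. Control replicate 3 was low as well, with histone medians of -1.33 and -0.88 in windows 4 and 5. The other genes stood at -0.35 and -0.56 in that library. Of these histone genes 2 of 21 and 2 of 10 were called lower, beside 8.67% over the genome. Chromosome 5 window 15, from PCDHB5 to POU4F3, held 21 clustered protocadherin genes, which encode adhesion molecules of neurons. They had a median of -1.45 in the knockout and -1.91 in control replicate 3, and the other 29 genes had medians of -0.035 and -0.020. This window stood at -0.54 in the knockout and -0.44 in control replicate 3 and was not called (adjusted p = 0.259). By contrast chromosome 5 window 12, from MEGF10 to SKP1, stood at 0.52, 0.50 and 0.60 in the knockout libraries. In control replicate 3 it stood at 0.092. Limma called the window (adjusted p = 0.00164). Of its 50 genes 13 were called higher, beside 7.96% over the genome.

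**Figure D5:**
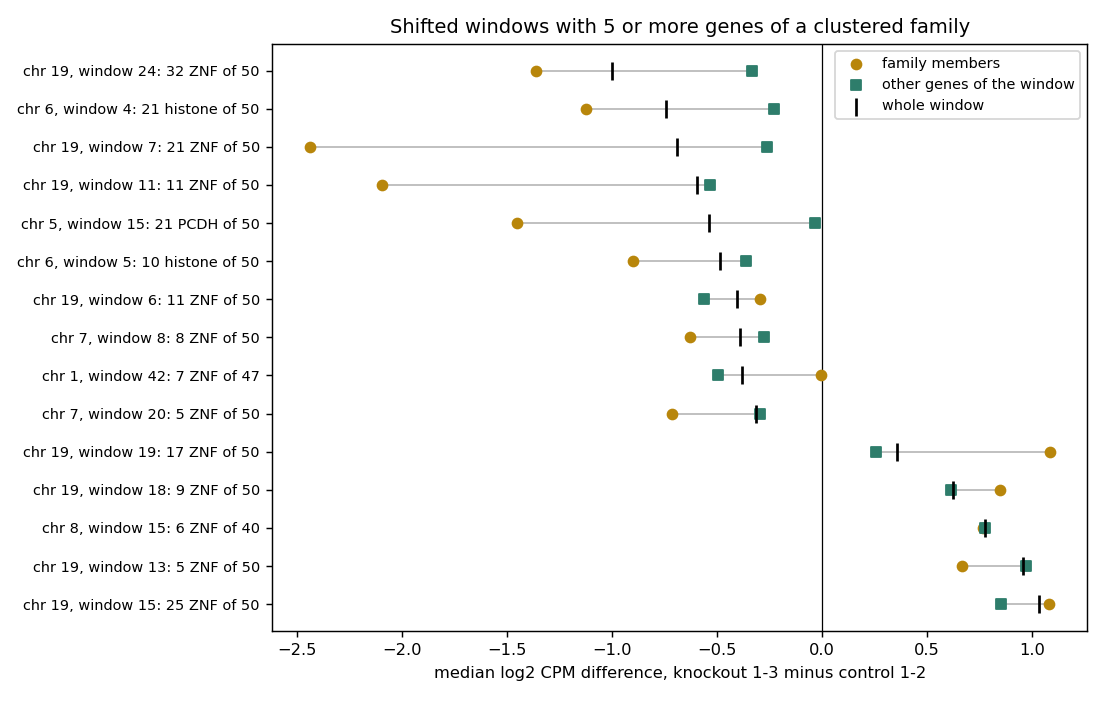
Rows are the windows shifted in the knockout that hold 5 or more genes of a clustered family (ZNF zinc fingers, PCDH protocadherins, histones), and the x axis is the median log2 CPM difference of the knockout libraries from control replicates 1 and 2. Circles give the family members, squares the other genes and bars the whole window; in chromosome 5 window 15 the other genes lie at -0.035, and in chromosome 19 window 24 at -0.34.

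The window that holds SINHCAF itself, chromosome 12 window 6 from MED21 to ENSG00000275854 (chr12:27175479-32908831), lay in no segment. It stood at 0.25, 0.12 and 0.22 in the knockout libraries and at 0.024, -0.024 and -0.20 in control replicates 1, 2 and 3 (limma difference 0.23, SE 0.055, adjusted p = 0.0192). Of its 50 genes 6 were called higher and 1 lower, beside 7.96% and 8.67% over the genome. SINHCAF measured 113, 105 and 132 CPM in the controls and 67.7, 66.2 and 61.9 CPM in the knockout libraries, while the median of its window was higher (edgeR log2 fold change -0.85, adjusted p = 0.00864).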

How the data were processed

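RNA-seq libraries of 3 control and 3 FAM60A-knockout HEK293 samples were analysed. The authors deposited raw counts, 1 whole number per Ensembl gene and library. According to the submitters' processing notes, STAR 2.7.10b and featureCounts 2.0.0 were used with hg38; the extract protocol names hg19, and the paper's methods name Salmon on hg38 with poly(A)-selected, strand-specific libraries. Which of these made the counts could not be settled.

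Gene order came from GENCODE v44lift37 (GRCh37), which placed 60878 of the 62754 genes by identifier; 85 genes averaging 10 or more counts had no position. Coordinates are of GRCh37 and served for order and naming only. Chromosome tails under 0.4 of a window were left out. Counts were scaled by TMM in edgeR 4.0.16 (R 4.3.3), and log2 CPM used a prior count of 2, so differences of low genes are understated. Windows were tested by limma 3.58.1 (lmFit, eBayes) on 1 centred median per window and library. Genes were tested by edgeR's quasi-likelihood test after filterByExpr (minimum count 10), over 20992 genes. Both were two-sided with Benjamini-Hochberg adjustment, called at 0.05. Segment borders are least-absolute-deviation splits within the 2 windows at each border, added after seeing the data. On simulated data, 40 of 40 windows shifted by 0.6 and 0 of 367 others were called, as were 199 of 200 genes changed by 3 on the log2 scale and 54 of 18696 unchanged ones. The simulated controls of a gene all had the same mean, so none stood apart as control replicate 3 did. These rates therefore do not describe the calls made on the real libraries.

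Named genes were, in each of the 6 segments with most windows, the first and last gene, their outer neighbours and the 4 coding genes of highest mean CPM, with the SINHCAF window, the 3 most shifted windows outside segments, and fixed lists of machine subunits and clustered families. Genes of other segments were detailed after their values were seen. Members, lists and tests were chosen with earlier results of these data known. Alternatives covered scaling (DESeq2 1.42.0 size factors), prior count, filters, biotype, window size, start and summary, shift size, left-out libraries, the replicate number as a block, DESeq2 and limma-voom. Libraries held 88361827 to 93346824 counts, and no counting intervals were computed.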

Additional observations from a re-analysis of the deposited data

How the results depend on the processing

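The share of windows called was 35.7% to 49.5% under scaling, prior count, filter, biotype, window and summary alternatives and stayed within 1.5 times of 43.5%. Leaving out 1 library gave 25.1% (without knockout replicate 1) to 85.7% (without control replicate 3), and for called genes 167 (without knockout replicate 1) to 14221 (without control replicate 3), beside 3491 with all libraries. DESeq2 called 5581 genes. Windows shifted in the knockout were 59.0% at a limit of 0.2 and 23.6% at 0.4. With the replicate number as a block, 407 genes and 32.4% of windows were called. The deviations of same-numbered libraries from their group means had correlations of 0.159, 0.1 and 0.019, so the numbers were not taken as pairing the samples. Library size scaling, which left 43.0% of windows shifted, turned the split to 44 higher and 131 lower. The segments were chosen from these same libraries, so their medians under other settings are a description. Over both comparisons 37 segment medians had an absolute value of at least 0.3. All 359 of their alternatives kept the sign, and 347 stayed at 0.3 or beyond. The causes of these changes were not tested.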

Other observations

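Chromosome X was outside the autosomal windows and was cut the same way into 15 windows. Windows 14 and 15, from GPR50 to LAGE3 and from UBL4A to TMLHE, stood at -0.67 and -0.57 in the knockout and -0.11 and -0.23 in control replicate 3. Window 8, from RPS7P14 to RPA4, stood at 0.59 and 0.29, and window 9, from RPSAP8 to ENSG00000234405, at 0.0084 and 0.49. Between control replicates 1 and 2 these windows differed by -0.16, -0.045, 0.078 and 0.028.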
